A study of Mus musculus with 8 samples.

Results

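Rbp3, Impg1, Impg2, Egflam, and Dag1 encode proteins of the extracellular matrix that surrounds photoreceptors and their synapses, or the receptor of such a protein. They were taken by gene symbol, and each of the 5 had a row of its own among the 21826 genes of the tables. RNA sequencing had been done on retinas of slc:ICR mice, with 1 library in each of 8 conditions, to follow gene expression in the rod lineage and in the other retinal cells during late development. Whole retina was taken at embryonic day 15 (E15) and embryonic day 18 (E18). At postnatal days 2, 5, and 8 (P2, P5, and P8) dissociated retinal cells were sorted on Cd73, a surface enzyme of rod precursors encoded by Nt5e, into a positive (Cd73PC) and a negative (Cd73NC) fraction. All groups share the strain and carry no labelled mutation or treatment. Retinas of several animals were pooled for each sort, speed was put before purity, and Cd73NC mixes interneurons, Muller glia, remaining progenitors, and other cells.

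The interphotoreceptor matrix fills the space between photoreceptors and the pigment epithelium. Rbp3 is its main soluble protein, a carrier of retinoids between these tissues, while Impg1 and Impg2 are proteoglycans that bind hyaluronan and help to anchor the matrix, Impg2 through a membrane-spanning segment. At the other end of the cell, Egflam (pikachurin) is secreted into the cleft of the ribbon synapse and binds dystroglycan, the product of Dag1, through sugar chains on that receptor. Dag1 is therefore a receptor rather than a matrix gene, and it is known to be made by many cell types, among them glia.

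Expression is given as FPKM, the estimated number of sequenced fragments of a gene scaled to the length of its transcript and to the mapped fragments of the library, with the lower and upper confidence bounds of the same table in parentheses. The bounds describe the estimate within a library and not the spread between animals. Of the 40 member values, 12 lay above their own upper bound, by 0.889% to 3.16%, and all 12 were FPKM of 128 or more, so that for the highest values the bounds did not enclose the estimate. Without replicate libraries no difference at a stage could be set against a replicate error, and a test is given only for the difference of the fractions over the 3 stages together. Differences are log2 ratios of FPKM + 1, and a difference past 1.5-fold (0.585 on this scale) is called higher or lower. A lower FPKM in a sorted fraction can come from fewer cells of a type or from less RNA per cell, and these cannot be told apart in such samples.

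Library properties were checked first. The depth of the libraries relative to E18 ranged from 0.965 to 1.62, absolute depth is unknown, and between 11152 and 12412 genes reached an FPKM of 1. Nt5e itself was in Cd73NC at 2.50%, 24.0%, and 7.55% of its Cd73PC FPKM at P2, P5, and P8. The 6 rod markers used here (Nrl, Nr2e3, Pde6b, Gnat1, Sag, and Cnga1) had a summed FPKM of 3040, 5950, and 8000 in Cd73PC and of 50, 743, and 544 in Cd73NC. Relative to its Cd73PC partner, the Cd73NC library thus held the most of the sort gene and of rod transcripts at P5.

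The genes lie on 4 chromosomes of build NCBI37/mm9. Rbp3 spans chromosome 14 from 34767208 to 34777402 on the plus strand and has 4 exons. Impg1 spans chromosome 9 from 80161137 to 80359045 on the minus strand with 17 exons, and Impg2 spans chromosome 16 from 56204426 to 56273866 on the plus strand with 20 exons. Egflam, with 22 exons, lies on the minus strand of chromosome 15 from 7156120 to 7348304. Dag1, with 4 exons, lies on the minus strand of chromosome 9 from 108108289 to 108166067. No other row of the tables overlapped any of the 5 spans.

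Since 4 of the 5 genes were higher in Cd73PC at each stage, the 250 bases upstream of each annotated start are shown, from the RefSeq promoter table of GRCm38.p6, 5′ to 3′ on the strand of the gene. Each sequence had 1 exact match in NCBIM37, at chr14:34766939-34767188 (plus) for Rbp3, chr9:80359046-80359295 (minus) for Impg1, chr16:56204176-56204425 (plus) for Impg2, chr15:7348396-7348645 (minus) for Egflam, and chr9:108166290-108166539 (minus) for Dag1. These starts lie 19 bases upstream of the start in the files for Rbp3, 91 for Egflam, and 222 for Dag1, and at it for Impg1 and Impg2. For Egflam and Dag1, which have 2 promoters in the table, the more upstream is shown. Capitals mark matches, on either strand, to TAATCC and TAATCT, which the photoreceptor homeodomain proteins Crx and Otx2 can bind, and to TGCTGA, a part of the Maf recognition element that Nrl can bind.
Rbp3: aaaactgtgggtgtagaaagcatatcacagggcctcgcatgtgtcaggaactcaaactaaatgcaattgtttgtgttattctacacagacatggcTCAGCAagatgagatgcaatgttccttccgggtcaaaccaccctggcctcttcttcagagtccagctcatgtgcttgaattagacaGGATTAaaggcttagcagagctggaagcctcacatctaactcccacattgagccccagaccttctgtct
Impg1: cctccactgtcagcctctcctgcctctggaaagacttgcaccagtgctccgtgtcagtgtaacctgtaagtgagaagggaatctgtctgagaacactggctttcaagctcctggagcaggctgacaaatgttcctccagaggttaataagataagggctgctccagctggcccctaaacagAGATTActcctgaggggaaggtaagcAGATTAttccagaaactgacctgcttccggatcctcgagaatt
Impg2: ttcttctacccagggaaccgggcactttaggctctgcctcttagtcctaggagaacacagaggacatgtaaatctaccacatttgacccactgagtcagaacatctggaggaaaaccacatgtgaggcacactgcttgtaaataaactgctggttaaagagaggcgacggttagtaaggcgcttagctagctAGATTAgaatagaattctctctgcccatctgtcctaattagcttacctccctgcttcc
Egflam: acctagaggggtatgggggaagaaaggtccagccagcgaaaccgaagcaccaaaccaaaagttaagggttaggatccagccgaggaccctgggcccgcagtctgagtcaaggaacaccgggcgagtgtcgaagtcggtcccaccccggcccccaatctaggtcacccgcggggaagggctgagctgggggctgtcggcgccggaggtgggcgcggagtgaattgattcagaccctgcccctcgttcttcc
Dag1: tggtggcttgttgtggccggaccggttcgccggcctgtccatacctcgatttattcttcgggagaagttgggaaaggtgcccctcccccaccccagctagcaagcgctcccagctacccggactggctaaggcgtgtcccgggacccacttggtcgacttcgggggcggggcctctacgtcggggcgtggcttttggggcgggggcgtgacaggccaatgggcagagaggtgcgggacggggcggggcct

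The windows of the 3 interphotoreceptor matrix genes held such letters and the windows shown for Egflam and Dag1 did not. The other promoter of Egflam and that of Dag1 were not searched. All matches read on the strand opposite to the gene, so that the capitals above are the reverse complement of the letters searched. Rbp3 had TAATCC at -69 to -64 from the start and TGCTGA at -155 to -150. Impg1 had TAATCT at -69 to -64 and again at -43 to -38, and Impg2 had it at -58 to -53. None of the matches overlapped another, and TATAAA, the usual letters of a TATA box, were found in none of the 5 windows. Of 32851 promoter windows of the same length, 6.25% held TAATCC, 7.31% TAATCT, 12.8% either of these, 16.1% TGCTGA, and 12.4% TATAAA. The GC content was 46.8% for Rbp3, 50.8% for Impg1, and 46.8% for Impg2, below the median of 52.4% over all windows, and 63.2% for Egflam and 67.6% for Dag1, above it. The ratio of observed to expected CpG was 0.147, 0.186, and 0.294 for the first 3 genes and 0.686 and 0.749 for Egflam and Dag1, around a median of 0.374.

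Rbp3 was the most abundant of the 5 in every library except at E15 and in P2 Cd73NC, where Dag1 exceeded it. In whole retina its FPKM was 10.6 (9.60 to 11.5) at E15 and 73.7 (69.3 to 74.7) at E18. In Cd73PC it was 929 (889 to 902) at P2, 1265 (1210.3 to 1229) at P5, and 1793 (1718 to 1738) at P8. In Cd73NC the values were 57.2 (53.8 to 57.9), 399 (381 to 392), and 197 (188 to 194). The lowest Cd73PC library was above the highest Cd73NC library, and all 8 libraries were apart by their bounds. Ranked by FPKM among all genes, Rbp3 moved from place 6631 at E15 and 893 at E18 to places 27, 19, and 9 in Cd73PC at P2, P5, and P8.

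Impg1 was listed at 0 in both whole retina libraries. In Cd73PC its FPKM was 12.3 (11.0 to 13.0) at P2, 51.6 (47.2 to 52.4) at P5, and 128 (119 to 126) at P8. In Cd73NC the FPKM was 0.0463 (0 to 0.0874), 3.21 (2.65 to 3.71), and 7.37 (6.49 to 8.08). Impg1 thus stepped up with each stage in both fractions, and its place among all genes in Cd73PC went from 5708 to 1400 and 426.

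Impg2, the membrane-spanning relative, was already present before birth, at 7.50 (6.84 to 8.13) at E15 and 21.6 (20.3 to 22.6) at E18. In Cd73PC its FPKM was 258 (248 to 255) at P2, 305 (293 to 302) at P5, and 386 (372 to 380) at P8. In Cd73NC the values were 14.8 (13.9 to 15.7), 67.1 (63.9 to 67.6), and 28.6 (27.1 to 29.3). As for Rbp3, P5 was the highest of the 3 Cd73NC libraries, and every library was apart from its neighbour in the order by the bounds. Per length, Impg2 exceeded Impg1 21.0-fold in FPKM in Cd73PC at P2, 5.91-fold at P5, and 3.0-fold at P8.

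Egflam had an FPKM of 7.50 (6.66 to 8.25) at E15 and 15.9 (14.5 to 17.0) at E18. In Cd73PC it was 152 (144 to 150) at P2, 188 (177 to 185) at P5, and 208 (196 to 205) at P8. In Cd73NC it was 15.9 (14.5 to 16.9), 75.7 (71.0 to 76.3), and 18.4 (17.0 to 19.2), again with P5 the highest. E18 and P2 Cd73NC were not apart by their bounds, while all other neighbours were. Rbp3, Impg2, and Egflam had the same order of the 8 libraries, namely P8, P5, and P2 Cd73PC, then P5 and P8 Cd73NC, then E18, P2 Cd73NC, and E15. For each of them, 59 of 10857 other genes that reached an FPKM of 5 in a library had that order, its fellow members included.

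Dag1 varied least. Its FPKM was 47.5 (43.9 to 48.7) at E15 and 53.0 (49.2 to 54.4) at E18. In Cd73PC it was 40.7 (37.9 to 41.1) at P2, 35.2 (32.5 to 36.2) at P5, and 38.3 (35.5 to 39.3) at P8, and in Cd73NC 64.8 (60.5 to 65.2), 66.8 (62.3 to 67.3), and 49.1 (45.7 to 49.4). All 3 Cd73NC values were above all 3 Cd73PC values. Both whole retina values were above those of Cd73PC and overlapped P8 Cd73NC by their bounds. Bounds also overlapped between P2 and P5 Cd73NC, between P2 and P8 Cd73PC, and between P8 and P5 Cd73PC. Per length, the ligand Egflam stood at 0.158 of the FPKM of its receptor at E15 and at 0.300 at E18, and at 3.74, 5.32, and 5.42 in Cd73PC at P2, P5, and P8. In Cd73NC the same ratio was 0.245, 1.13, and 0.375, so that Egflam exceeded Dag1 in each Cd73PC library and, among the others, in P5 Cd73NC alone.

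**Figure D1:**
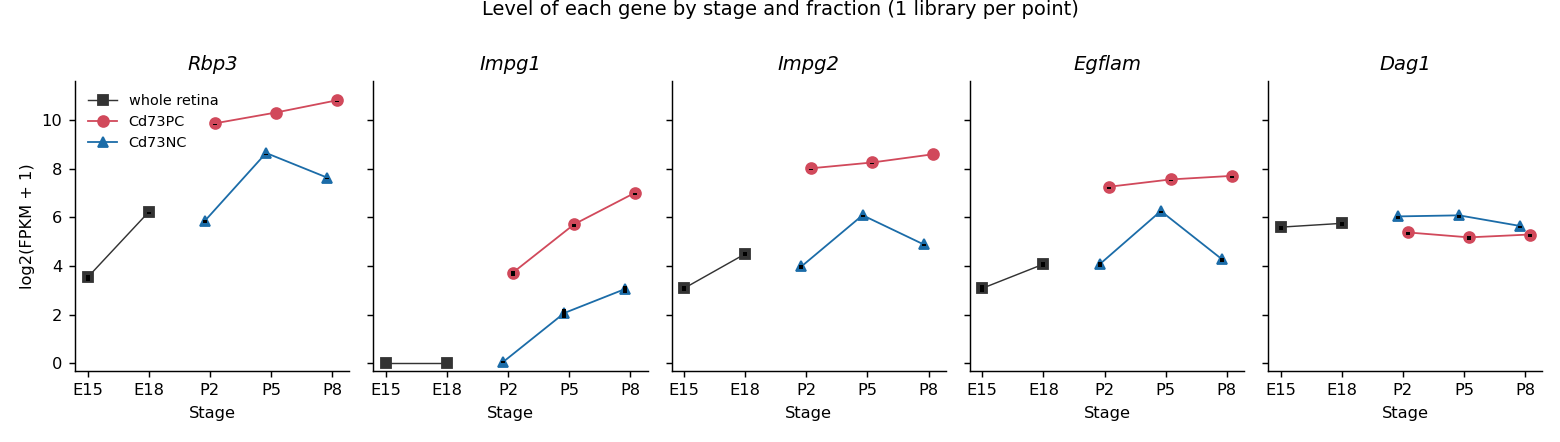
FPKM of the 5 genes as log2(FPKM + 1), by stage from E15 to P8, for whole retina, Cd73PC, and Cd73NC, with 1 point per library and black bars for the confidence bounds of the table. Rbp3, Impg1, Impg2, and Egflam were highest in Cd73PC at each postnatal stage, Dag1 was higher in Cd73NC, and the Cd73NC points of Rbp3, Impg2, and Egflam peaked at P5.

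The comparison of the fractions asks which of the genes go with the rod lineage. At each stage 4 of the 5 genes, Rbp3, Impg1, Impg2, and Egflam, were more than 1.5-fold higher in Cd73PC, where 14.5%, 12.3%, and 13.0% of all genes with an FPKM of at least 1 were called at P2, P5, and P8, and 6.50% at all 3 stages. For Rbp3 the log2 ratio was 4.0, 1.66, and 3.18 in the order of the stages, and the FPKM ratios were 16.3, 3.17, and 9.08. Impg2 had log2 ratios of 4.03, 2.17, and 3.71 and FPKM ratios of 17.4, 4.54, and 13.5. Egflam had log2 ratios of 3.19, 1.30, and 3.42 and FPKM ratios of 9.61, 2.48, and 11.3. In these 3 genes the fractions were least apart at P5 on both scales.

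Impg1 had log2 ratios of 3.67, 3.64, and 3.95 and FPKM ratios of 266, 16.1, and 17.4. At P2 its FPKM in Cd73NC was 0.0463, close to 0, so that the size of the ratio there rests on the pseudocount. Counted from the highest ratio, Impg1 stood at place 5 of 12229 genes at P5 and 9 of 12364 at P8, against places 220 and 60 for Rbp3, 108 and 23 for Impg2, and 406 and 37 for Egflam. At P2, among 12334 genes, Impg2 stood at 34, Rbp3 at 36, Impg1 at 49, and Egflam at 84.

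Dag1 went the other way. Its log2 ratios over the 3 stages were -0.66, -0.90, and -0.35, which put its FPKM in Cd73NC at 159%, 190%, and 128% of Cd73PC. It was past 1.5-fold at P2 and P5, where 25.0% and 27.0% of genes were called higher in Cd73NC, and within it at P8, where 31.3% were called. The P2 call was lost when the libraries were scaled to the same upper quartile or quantile normalized (log2 ratio -0.56 under both). The median log2 ratio over all genes was itself below 0, at -0.143, -0.178, and -0.227, and relative to it Dag1 stood at -0.515, -0.727, and -0.122. A share of 22.3%, 16.8%, and 42.5% of genes had a lower ratio. Muller glia markers (Glul, Rlbp1, Slc1a3, Apoe, and Aqp4) had a summed FPKM of 601, 1180, and 1020 in Cd73NC and of 360, 348, and 294 in Cd73PC. At P2 Apoe went the other way from the rest, at 110 in Cd73NC and 162 in Cd73PC, and Aqp4 was under 1 at P2 and P5. In whole retina the sum of these markers was already 267 at E15 and 384 at E18. Progenitor markers (Mki67, Top2a, Ccnb1, and Fgf15) had a summed FPKM of 405, 88.2, and 9.71 in Cd73NC and of 107, 22.5, and 1.94 in Cd73PC. The part of Muller glia or of progenitors in the difference of Dag1 was not tested.

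Both fractions of a stage came from the same retinas, so the 3 stages also form 3 pairs. With stage as the block, limma was fitted to log2(FPKM + 1) of the 6 sorted libraries. Stages of different age stand in for replicates, and 2 residual degrees of freedom are left. The SE and p are moderated, with variance borrowed from all genes of the fit, which gives 5.46 total degrees of freedom. All 5 genes passed an adjusted p of 0.05 in this fit, 4 higher in Cd73PC, where 8.90% of 13055 genes were called, and Dag1 higher in Cd73NC, where 19.2% were called. The mean log2 ratio was 2.95 ± 0.441 (SE) for Rbp3 (limma adjusted p = 0.00906), 3.75 ± 0.147 for Impg1 (0.00268), 3.30 ± 0.369 for Impg2 (0.00468), and 2.64 ± 0.425 for Egflam (0.0110), each higher in Cd73PC at 3 of 3 stages. For Dag1 it was -0.64 ± 0.154 (limma adjusted p = 0.0337), lower in Cd73PC at 3 of 3 stages. The call of Dag1 was lost with upper-quartile scaling (limma adjusted p = 0.0588), with quantile normalization (0.0545), and without P2 (0.0809) or P5 (0.211), and it held without P8 (0.0395) and with a pseudocount of 0.1 (0.0314). The other 4 genes passed under each of these 6 alternatives. The size and SE for Impg1 rest on the pseudocount, and with 0.1 its mean was 4.83 ± 0.506 (limma adjusted p = 0.00437). The fits without a stage have fewer residual degrees of freedom than the main fit and lean more on the borrowed variance.

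**Figure D2:**
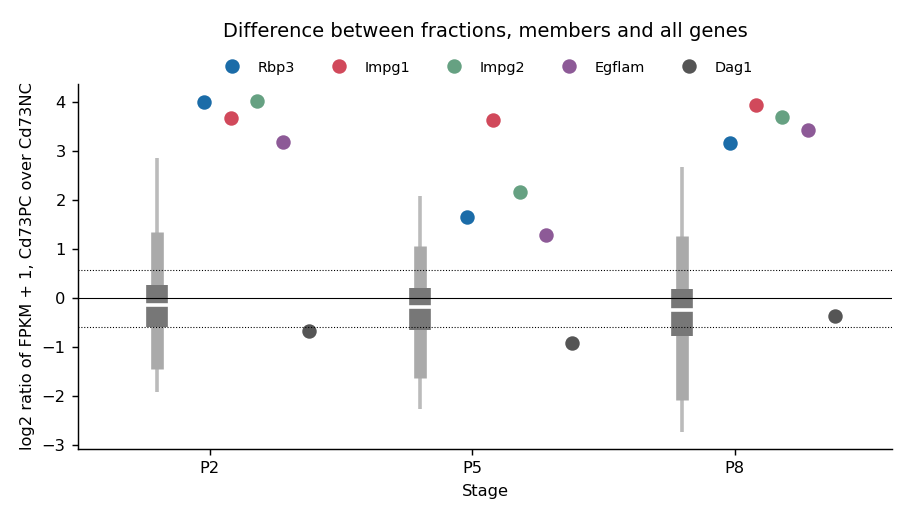
Log2 ratio of FPKM + 1, Cd73PC over Cd73NC, for the 5 genes at P2, P5, and P8, each point being 1 pair of libraries. Grey bars, from thin to thick, run between the 1st and 99th, 5th and 95th, and 25th and 75th percentiles of all genes, the white line is their median, and dotted lines mark 1.5-fold. Rbp3, Impg1, Impg2, and Egflam lie above the dotted line at each stage, and Dag1 lies below it at P2 and P5.

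To see how far the Cd73NC signal went with rods, each gene was expressed as a percentage of its Cd73PC level and set beside the 6 rod markers. The markers spanned 0.0556% to 4.74% at P2 (median 1.08%), 5.55% to 21.1% at P5 (median 8.77%), and 5.13% to 7.87% at P8 (median 6.94%). Impg1, at 0.376%, 6.22%, and 5.74%, lay within that span at each stage. Impg2, at 5.75%, 22.0%, and 7.42%, lay above it at P2 and P5 and within it at P8. Rbp3, at 6.15%, 31.6%, and 11.0%, and Egflam, at 10.4%, 40.4%, and 8.88%, lay above it at all 3 stages. So did Dag1, at 159%, 190%, and 128%. The sort gene Nt5e, at 2.50%, 24.0%, and 7.55%, lay within the span at P2 and P8 and above it at P5, where it exceeded Impg2. These are single libraries, and whether the excess over the markers exceeds the spread between sorts could not be tested.

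Markers of other photoreceptors and of bipolar cells were also read in both fractions. The 5 cone markers (Arr3, Opn1sw, Opn1mw, Gnat2, and Pde6h) had a summed FPKM of 57.0, 144, and 119 in Cd73NC against 128, 109, and 146 in Cd73PC, so that P5 was the stage with the higher sum in Cd73NC. Of the 4 bipolar markers used here, Otx2 is also made by photoreceptor precursors and was at an FPKM of 349, 851, and 552 in Cd73NC and of 777, 492, and 353 in Cd73PC. The other 3 (Grm6, Trpm1, and Prkca) summed to 3.50, 13.0, and 277 in Cd73NC against 6.27, 7.91, and 40 in Cd73PC, with the highest sum in P8 Cd73NC. The part of either cell type, or of rods that stayed in the negative gate, in the Cd73NC level of Rbp3, Impg2, and Egflam was not tested.

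**Figure D3:**
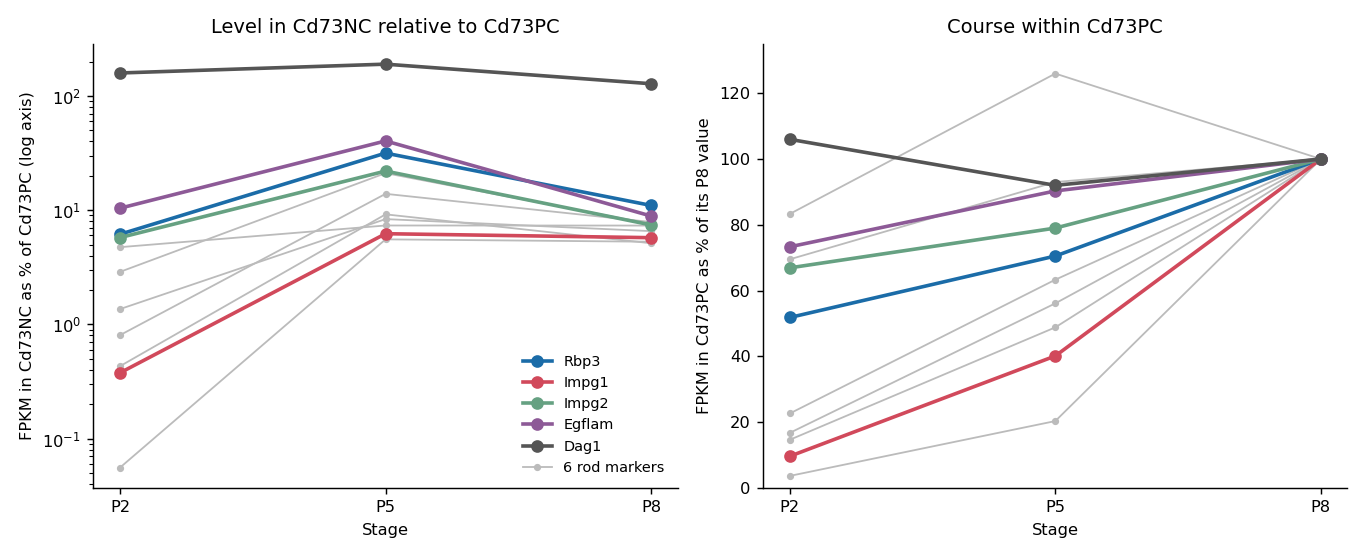
Left, FPKM in Cd73NC as a percentage of that in Cd73PC at P2, P5, and P8 on a log axis. Right, FPKM in Cd73PC as a percentage of its value at P8. Coloured lines are the 5 genes and grey lines the 6 rod markers, with 1 library per point. At P5 Dag1 (190%), Egflam (40.4%), Rbp3 (31.6%), and Impg2 (22.0%) lie above the highest marker (21.1%) on the left. The sort gene Nt5e, which is not drawn, was at 24.0% at P5.

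The steps between stages gave the changes between sampled ages. Rbp3, Impg2, Egflam, and Dag1 were already present at E15, so that their onset was not sampled. From E15 to E18, 3 of the 5 genes were higher past 1.5-fold, against 7.59% of all genes called higher at E18. Rbp3 was 6.95-fold higher in FPKM (log2 ratio 2.69, place 16 of 12625 genes), Impg2 2.89-fold (1.41), and Egflam 2.12-fold (0.99). Dag1 had a log2 ratio of 0.16, and Impg1 was listed at 0 at both stages. None was lower, against 3.47% of genes called higher at E15.

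The next step compares whole retina with sorted cells, so that stage and cell mixture cannot be told apart in it. In P2 Cd73PC over E18, 4 of the 5 genes were higher, against 14.7% of genes, with log2 ratios of 3.64 for Rbp3, 3.52 for Impg2, 3.18 for Egflam, and 3.73 for Impg1, for which no fold is given because E18 was listed at 0. Dag1 was at -0.37, within 1.5-fold, while 30.2% of genes were called higher at E18. In P2 Cd73NC over E18 none of the 4 genes that passed the filter was past 1.5-fold, with log2 ratios of -0.36 for Rbp3, -0.52 for Impg2, -0.00 for Egflam, and 0.29 for Dag1, where 5.47% of genes were called higher and 13.3% lower.

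Within Cd73PC, Impg1 was the late member. It was the 1 gene of the 5 past 1.5-fold from P2 to P5, at 4.19-fold in FPKM (log2 ratio 1.98, place 31 of 11908), and from P5 to P8, at 2.49-fold (1.30, place 134 of 11633), while 5.92% and 5.94% of genes were called higher in these steps. None of the 5 was lower past 1.5-fold, against 15.3% and 8.54% of genes. Rbp3 had log2 ratios of 0.44 and 0.50, Impg2 of 0.24 and 0.34, Egflam of 0.30 and 0.15, and Dag1 of -0.20 and 0.12. At P2, Impg1 had reached 9.59% of its P8 FPKM in Cd73PC, Rbp3 51.8%, Impg2 66.9%, Egflam 73.3%, and Dag1 106%. The 6 rod markers ranged from 3.61% for Gnat1, the rod transducin subunit, to 83.3% for Nr2e3, a rod transcription factor. At P5 the values were 40.1% for Impg1, 70.5% for Rbp3, 79.0% for Impg2, 90.3% for Egflam, and 92.0% for Dag1.

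Within Cd73NC the course bent at P5. From P2 to P5, 4 of the 5 genes were higher, against 13.1% of genes, with FPKM ratios of 6.99 for Rbp3, 4.52 for Impg2, and 4.78 for Egflam and a log2 ratio of 2.01 for Impg1. Dag1 had a log2 ratio of 0.04, and 16.3% of genes were called lower. From P5 to P8, Rbp3, Impg2, and Egflam were lower, at 0.494, 0.427, and 0.244 of their P5 FPKM (log2 ratios of -1.01, -1.20, and -1.98), against 13.2% of genes called lower. Egflam held place 68 from the lowest of 12547 genes. Impg1 was 2.30-fold higher in the same step (log2 ratio 0.99), where 14.1% of genes were called higher, and Dag1 was at -0.44. The 6 rod markers did not move as 1 group in this step. Gnat1 and Cnga1 were higher, with log2 ratios of 2.12 and 0.87, Nrl and Nr2e3 were lower, at -1.36 and -1.14, and Pde6b and Sag stayed within 1.5-fold.

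The courses of the 5 genes were compared as Pearson's r of log2(FPKM + 1) over the 8 libraries, which share stages and sorts and are not independent points. Impg2 and Egflam were most alike (r = 0.988), followed by Rbp3 with Impg2 (0.969) and with Egflam (0.960). Impg1 had r of 0.901 with Rbp3, 0.915 with Impg2, and 0.877 with Egflam. Dag1 had negative r with each of the other members.

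Among 10857 other genes that reached an FPKM of 5 in at least 1 library, those most like Rbp3 were Nrl (r = 0.998), Adck3 (0.994), Rom1 and Samd7 (both 0.993), and Nr2e3 (0.991). Nrl and Nr2e3 encode transcription factors of rods, and Rom1 a protein of the outer segment disc rim. Impg1 was closest to Susd3 (0.998), Rdh12, Reep6, and Hfe (each 0.997), and Gucy2e (0.995). Rdh12 encodes a retinol dehydrogenase of photoreceptors and Gucy2e their guanylate cyclase. Impg2 was closest to Mak (0.997), a kinase of the photoreceptor cilium, then Slc25a33 (0.996), Susd2 (0.995), Dlc1, and Acsl1 (both 0.994). Egflam was closest to Mgat1 (0.997), an enzyme of N-glycan synthesis, Fam53b (0.994), Acsl1 (0.993), Pink1 (0.991), and Slc19a1 (0.989). Dag1 was closest to Slc20a2 (0.979), Ankrd43 (0.976), 2010106G01Rik (0.969), Egfr (0.967), and Rasl10b (0.964). The number of genes with r of at least 0.95 was 189 for Rbp3, 270 for Impg1, 281 for Impg2, 170 for Egflam, and 20 for Dag1. With so few points these lists changed with the libraries and the measure used. Leaving out 1 library at a time shared 2 to 4 of the 5 closest genes for Rbp3, 2 to 5 for Impg1, 1 to 4 for Impg2, 1 to 5 for Egflam, and 0 to 2 for Dag1. Over the 6 sorted libraries alone, 1 of the 5 closest genes was shared for Rbp3, 2 for Impg1, 3 for Impg2, 3 for Egflam, and 1 for Dag1.

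Other genes of the matrix and of the dystroglycan system were read from lists written by hand. List counts and their percentages take in list genes at any FPKM. The shares of all genes are over genes with an FPKM of at least 1, so that the bases differ. With that filter 6 matrix genes were higher in Cd73NC at all 3 stages, and the counts of the other lists stayed the same. Of the 24 genes of the interphotoreceptor and pericellular matrix reported here, 0 were higher in Cd73PC at all 3 stages and 7 in Cd73NC, where 6.50% and 14.3% of all genes were called. Cd44, the hyaluronan receptor, was at an FPKM of 5.25, 3.55, and 1.70 in Cd73PC and of 25.4, 24.9, and 12.6 in Cd73NC at P2, P5, and P8. The proteoglycan neurocan (Ncan) had log2 ratios of -1.59, -2.25, and -2.77. Mfge8, a secreted glycoprotein, was at -1.79, -2.42, and -2.42, and Sparc, a collagen-binding matrix protein, at -1.22, -1.76, and -1.71. Over the 17 of these genes that reached an FPKM of 1 in a sorted library, the median log2 ratio was -0.924, -1.076, and -1.356.

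The sugar chains through which dystroglycan binds its ligands are built by a set of glycosyltransferases and supporting enzymes, of which 17 were in the tables. At all 3 stages 1 of them was higher in Cd73PC (6.50% of all genes), the O-mannosyltransferase Pomt2, with log2 ratios of 1.06, 0.69, and 1.43, and 1 was higher in Cd73NC (14.3% of all genes), Gmppa, at -0.93, -0.77, and -1.26. Large, the glycosyltransferase that extends the ligand-binding chain, had an FPKM of 29.1, 35.3, and 39.6 in Cd73PC and of 20.2, 32.5, and 27.9 in Cd73NC, and was within 1.5-fold at each stage. The median over the 16 genes with an FPKM of 1 in a sorted library was 0.171, 0.094, and 0.113.

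Inside the cell dystroglycan is held by dystrophin and its partners. Of the 16 genes of that complex reported here, 8 reached an FPKM of 1 in a sorted library. Over all 16, 1 (6.25%) was higher in Cd73PC at all 3 stages and 0 in Cd73NC, against 6.50% and 14.3% of all genes. Dmd, the dystrophin gene, had an FPKM of 21.2, 20.1, and 16.3 in Cd73PC and of 2.84, 9.76, and 4.95 in Cd73NC, with its highest Cd73NC value at P5 as for Egflam. The median log2 ratio over the 8 genes of this list that reached an FPKM of 1 was -0.289, 0.048, and -0.270.

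Among 15 other ligands of dystroglycan and partners of pikachurin, 0 were higher in Cd73PC and 6 (40.0%) in Cd73NC at all 3 stages, against 6.50% and 14.3% of all genes. Nrxn2, a neurexin, had log2 ratios of -1.51, -1.29, and -2.64, and the secreted guidance protein Slit2 of -0.95, -1.09, and -3.13. Slit1 was at -1.55, -1.65, and -1.51. Gpr179, a receptor of bipolar cell dendrites that binds pikachurin across the cleft, was at an FPKM of 1.35, 4.31, and 77.4 in Cd73NC and of 0.551, 0.726, and 9.24 in Cd73PC at P2, P5, and P8. At P8 the ligand Egflam and this partner were thus on opposite sides, with 208 and 18.4 for Egflam in Cd73PC and Cd73NC. The median over the 10 genes with an FPKM of 1 was -0.733, -1.188, and -1.561.

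Of the 14 genes of retinoid handling reported here beside Rbp3, 3 (21.4%) were higher in Cd73PC and 1 (7.14%) in Cd73NC at all 3 stages, against 6.50% and 14.3% of all genes. The photoreceptor retinol dehydrogenases Rdh12 (log2 ratios 3.68, 3.38, and 4.0) and Rdh8 (3.48, 3.54, and 3.71) and the disc transporter Abca4 (1.43, 1.32, and 2.77) were higher in Cd73PC. The cellular carrier Rlbp1 (-1.06, -1.92, and -2.28), which is also a Muller glia marker, was higher in Cd73NC. The median over the 13 genes with an FPKM of 1 was 0.646, -0.065, and -0.171. The 5 pigment epithelium markers (Rpe65, Tyr, Tyrp1, Dct, and Best1) had a summed FPKM of 31.8, 21.2, and 33.8 in Cd73PC and of 1.80, 14.7, and 16.5 in Cd73NC, with Rpe65 listed at 0 in both P2 fractions and Best1 under 1 in every library. Their part in the list was not tested.

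**Figure D4:**
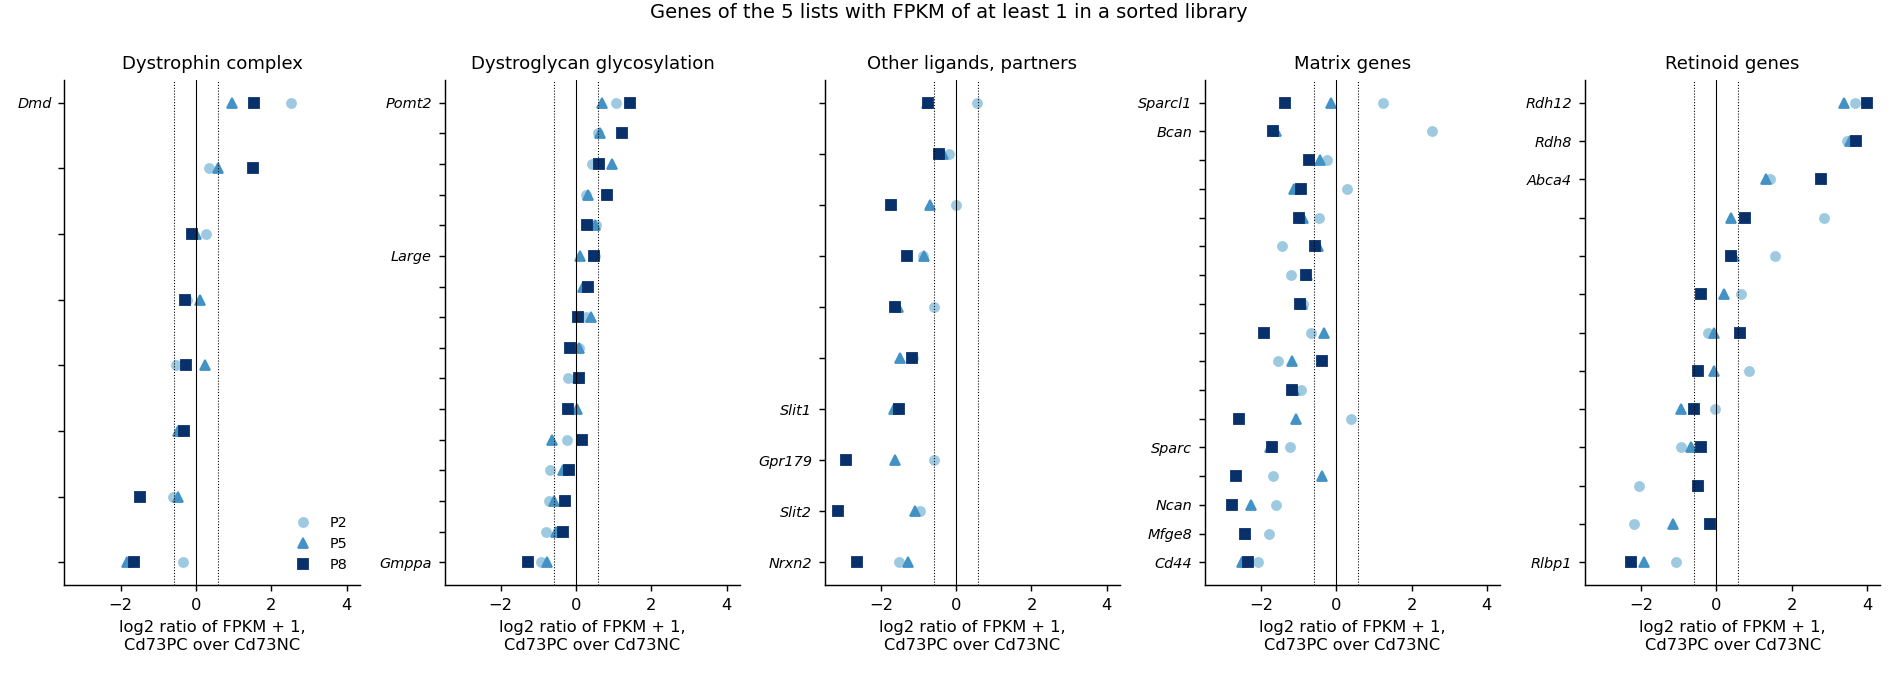
Log2 ratio of FPKM + 1, Cd73PC over Cd73NC, for the reported genes of the 5 lists with an FPKM of at least 1 in a sorted library, with 1 symbol per gene and stage (P2, P5, and P8) and dotted lines at 1.5-fold. Most symbols of the matrix list and of the dystroglycan ligands lie to the left of 0, with Cd44, the lowest of the matrix list by its mean over the stages, at -2.08, -2.51, and -2.33, and genes named in the text carry their symbols.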

How the data were processed

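RNA of 8 mouse retina libraries, 1 per condition, had been sequenced as single-end reads. The authors aligned reads to NCBI37/mm9 with TopHat2 2.0.8b and deposited, per library, Cufflinks 2.1.1 FPKM values with confidence bounds for 23021 rows. Versions follow the submitters' processing notes. FPKM is scaled to transcript length and mapped fragments, so absolute depth is unknown. Small RNAs (798 rows) were left out, rows of 234 repeated symbols were summed, and failed estimates (4 to 10 rows per library) were taken as missing. In 1428 to 2170 rows per library the FPKM lay outside its own bounds.

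Ratios were computed on FPKM + 1, and all genes with an FPKM of at least 1 in either library formed the background. List counts were taken without that filter. The members and lists were chosen with earlier results of these data known. Named are the members, the 5 genes closest to each, up to 4 list genes per direction past 1.5-fold at all 3 stages, and Gpr179, Large, Dmd, Cd44, and Nt5e. Some marker and list genes are not reported here, and sums, counts, and medians are over the others. With stage as block, limma 3.58.1 (R 4.3.3) was fitted to genes with an FPKM of at least 1 in a sorted library, with Benjamini-Hochberg adjustment, since the study sorted both fractions of a stage from the same retinas. Relative depth was read from ratios of weakly expressed rows. Spans came from the tables, exons from GENCODE M1, and promoters from RefSeq. Alternatives were pseudocounts of 0 and 0.1, a filter of FPKM 1 or none, upper-quartile and quantile scaling, 2-fold, non-overlapping bounds, rows kept apart, and small RNAs kept. The work was done in Python 3.11.15 (pandas 2.3.3, numpy 2.4.6, and scipy 1.17.1), figures were drawn with matplotlib 3.10.9, and the scripts were tested on simulated data.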

Additional observations from a re-analysis of the deposited data

Results flagged for a closer look

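From P5 to P8, 3 genes moved in opposite directions in the fractions. On the log2(FPKM + 1) scale Rbp3 was at 0.50 in Cd73PC and -1.01 in Cd73NC, Impg2 at 0.34 and -1.20, and Egflam at 0.15 and -1.98. The Cd73PC values were within 1.5-fold and the Cd73NC values past it. Each step is a single pair of libraries, and the difference between the fractions was not tested. From P5 to P8 in Cd73NC, 2 of the 6 rod markers were higher past 1.5-fold, 2 lower (Nrl and Nr2e3), and 2 within it. Their median log2 step was 0.15. Nrl also moved in opposite directions, at 0.105 in Cd73PC and -1.362 in Cd73NC. Nr2e3 was lower in both fractions, Gnat1, Sag, and Cnga1 were higher in both, and Pde6b was at 0.832 and -0.006. The sort gene Nt5e went from an FPKM of 131 to 124 in Cd73PC and from 31.4 to 9.38 in Cd73NC. The part of rods in the pattern was not tested.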

How the results depend on the processing

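Within a stage each fraction is 1 library, so no library could be left out there. A fit with stage as the replicate block, added after seeing the data, gave mean log2 ratios of 2.95, 3.75, 3.30, 2.64, and -0.64 for Rbp3, Impg1, Impg2, Egflam, and Dag1. With a pseudocount of 0.1 the ratio of Impg1 was 4.83. The ratio of Dag1 was -0.53 with upper-quartile scaling, -0.58 with quantile normalization, -0.63 without P2, and -0.50 without P5, and its call was lost in these 4. This fit called 3667 genes, 3544 and 3117 under the scalings, 4147 with a pseudocount of 0.1, and 3267, 289, and 2624 without P2, P5, and P8. Quantile normalization raised the share of calls higher in Cd73PC from 31.7% to 49.6%. Of 197 alternative values of the log2 ratios of the members, 192 stayed within 1.5-fold of the value reported, 5 moved, and 0 reversed. All 5 were of Impg1, listed at or near 0 in the lower library, where the pseudocount sets the size. Its P2 ratio of Cd73PC to Cd73NC was 8.05 with no pseudocount and 6.41 with 0.1, that of P2 Cd73PC to E18 6.96 with 0.1, and that of P5 to P2 Cd73NC 6.11 and 4.50. The Dag1 call at P2 was lost under upper-quartile and quantile scaling. With a 2-fold threshold, by construction, fewer genes were called. The counts went from 1792 to 963 higher in Cd73PC and from 3082 to 1560 higher in Cd73NC at P2, from 1502 to 685 and from 3297 to 1764 at P5, and from 1611 to 887 and from 3874 to 2363 at P8. Over both directions they went from 1396 to 466 for E18 over E15, 5724 to 3047 for P2 Cd73PC over E18, 2360 to 759 for P2 Cd73NC over E18, 2521 to 769 and 1684 to 529 for P5 over P2 and P8 over P5 in Cd73PC, and 3653 to 1530 and 3431 to 1547 in Cd73NC. Quantile normalization gave 2604 genes higher in Cd73PC and 2692 in Cd73NC at P8 (49.2% of calls in Cd73PC, against 29.4%), and 2198 and 2320 at P5 (48.6% against 31.3%). It shifted the median log2 ratio of all genes by 0.101, 0.213, and 0.248 at P2, P5, and P8, by 0.182 for P2 Cd73PC over E18, and by 0.135 for P5 over P2 Cd73PC, and upper-quartile scaling shifted it by 0.109 at P5. List counts moved in 18 of 70 values. The matrix genes higher in Cd73NC numbered 14 with no pseudocount, 13 with 0.1, and 4 at 2-fold. For glycosylation, 2 were higher in Cd73PC under either pseudocount and either scaling and 0 at 2-fold, and 0 in Cd73NC under quantile normalization and at 2-fold. For the dystrophin complex, 2 were higher in Cd73PC and 3 in Cd73NC under either pseudocount, and 0 in Cd73PC at 2-fold. The ligand list had 3 in Cd73NC at 2-fold and the retinoid list 2 in Cd73NC with no pseudocount and 3 with 0.1. Of the 5 genes closest to each member, Spearman's rho, in which many genes tie, shared 0 for Rbp3, Impg1, and Dag1 and 1 for Impg2 and Egflam. The 6 sorted libraries shared 1, 2, 3, 3, and 1 for Rbp3, Impg1, Impg2, Egflam, and Dag1, and genes reaching an FPKM of 1 shared 2 for Dag1. Beyond the pseudocount and the threshold the cause was not tested. Leaving out each library in turn, also added after seeing the data, shared between 0 and 5 of these genes, from 2 to 4 for Rbp3, 2 to 5 for Impg1, 1 to 4 for Impg2, 1 to 5 for Egflam, and 0 to 2 for Dag1. Absolute depth is unknown, so no detection limit can be set for Impg1, which was at or near 0 before birth and in P2 Cd73NC.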

Other observations

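Among the matrix genes, Bcan, the proteoglycan brevican, was on opposite sides at different stages. In Cd73PC it stood at an FPKM of 6.24, 2.28, and 1.93 at P2, P5, and P8, and in Cd73NC at 0.251, 8.88, and 8.35. Sparcl1, a secreted glycoprotein, was at 2.35, 4.03, and 1.83 in Cd73PC and at 0.412, 4.55, and 6.24 in Cd73NC. Both genes were chosen after their values were seen, and each value is a single library, so that the change of side was not tested.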
